A study of Mus musculus with 47 samples.

Results

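The comparison set BMDMs of Zmynd8 cKO mice against BMDMs of WT mice, neither treated with LPS or IL-4 (NT), across all 51912 genes of the deposited table. It used 2 of the 6 BMDM RNA-seq libraries and 2 of the 47 samples of the series, chosen by their labels as the untreated pair. BMDMs are macrophages grown from bone marrow, here in M-CSF at 20 ng/ml for 5 days. WT mice were littermates homozygous for the floxed Zmynd8 allele (Zmynd8 fl/fl) without Cre, and cKO mice were Zmynd8 fl/fl with 1 copy of Lyz2-Cre, a Cre recombinase expressed from the lysozyme locus Lyz2 in myeloid cells, so both genotypes carried the floxed allele on a C57BL/6 background. The LPS (100 ng/ml) and IL-4 (20 ng/ml) pairs, treated for 6 h, came from the same genotypes. They are used only for comparison with the untreated values and in a fit over all 6 BMDM libraries. Each library was a pool of 3 biological replicates per the Methods, and the age of these mice is not given in the sources used here. With 1 pooled library per genotype, the untreated pair allowed no replicate check and no test of the genotype. Each ratio carries 95% limits from an exact binomial interval (Clopper-Pearson), which describe read sampling and leave out differences between mice.

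ZMYND8 is a chromatin reader that binds acetylated and methylated histone tails and recruits histone demethylases and deacetylase complexes to enhancers and promoters. Resting macrophages keep a low tonic level of type I interferon signalling, in which the receptor IFNAR activates a transcription factor complex that contains STAT2 and IRF9. This complex binds the interferon-stimulated response element (ISRE) in front of antiviral genes, while guanylate-binding proteins and immunity-related GTPases also respond to interferon gamma. IRF7, itself an interferon-stimulated gene, amplifies interferon production.

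The WT library held 26209356 counts and the cKO library 22597425. Macrophage genes were abundant in both: the deposited TPM, which scale for transcript length, were 573 in WT and 472 in cKO for the M-CSF receptor Csf1r, 3863 and 4468 for Cd68, and 323 and 293 for the transcription factor Spi1. Over all 14 macrophage markers the summed level was 20653 CPM in WT and 16960 in cKO, with 10 ratios below 0 and a median of -0.37. Mertk was called lower and Cd14 higher, and after the adjustment for exon length described further on 3 were called lower and 0 higher. Zmynd8 itself (ENSMUSG00000018671, chr2:165784152-165899016, GRCm38, minus strand) had 2284 counts in WT and 1842 in cKO, a log2 ratio of cKO over WT of -0.10 (-0.19 to -0.01). The deletion removes the exons between the LoxP sites only, and a count over the whole gene does not test for their loss. Lyz2, the locus that carries Cre, was at 10950 CPM (counts scaled to the library total) in WT and 7202 in cKO. Its neighbour Lyz1, a near-identical lysozyme gene, was at 4.04 CPM in WT and 61.9 in cKO, and reads of the 2 lysozymes can be assigned to either. Lyz2 was also lower in the cKO library after LPS (6902 and 2892 CPM) and IL-4 (8941 and 5245 CPM), and Lyz1 higher in both.

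Markers of other cells were summed over each list. B cell markers reached 5.95 CPM in WT and 15.6 in cKO, monocyte markers 18.4 and 28.4, mast cell and basophil markers 7.29 and 5.09, stromal markers 4.92 and 2.52, and T and NK cell markers 29.8 and 26.3, where Cd3d, Cd3e and Cd8a were at 0 in both libraries. Dendritic cell markers reached 65.1 CPM in WT and 91.2 in cKO, and erythroid and megakaryocyte markers 121.8 and 295.9, a list that includes Pf4. Neutrophil markers reached 145 CPM in WT and 152 in cKO, with Mpo and Elane at 0 in both. The 3 B cell markers with enough counts (Cd79b, Ighm and Igkc) were all higher in cKO, while Vpreb3 was at 0 in both, and the part of such cells in the results was not tested. In bulk RNA, fewer cells of a type and less RNA per cell cannot be told apart. Xist, the transcript of the inactive X chromosome, was at 740 CPM in WT and 324 in cKO, and Ddx3y and Eif2s3y of the Y chromosome were at 0 in both.

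A gene was called when its counts, each divided by the library total, differed by at least 2-fold, its limits left out no change, and it had a mean of at least 10 counts over the pair. Of 12463 genes that passed the count minimum, 384 were called higher in the cKO library (3.08%) and 605 lower (4.85%). The median log2 ratio over all of them was -0.02. The plot of all genes places Ifit2 and Rsad2 among the abundant lower calls, beside Rnf213 and Xist.

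**Figure D1:**
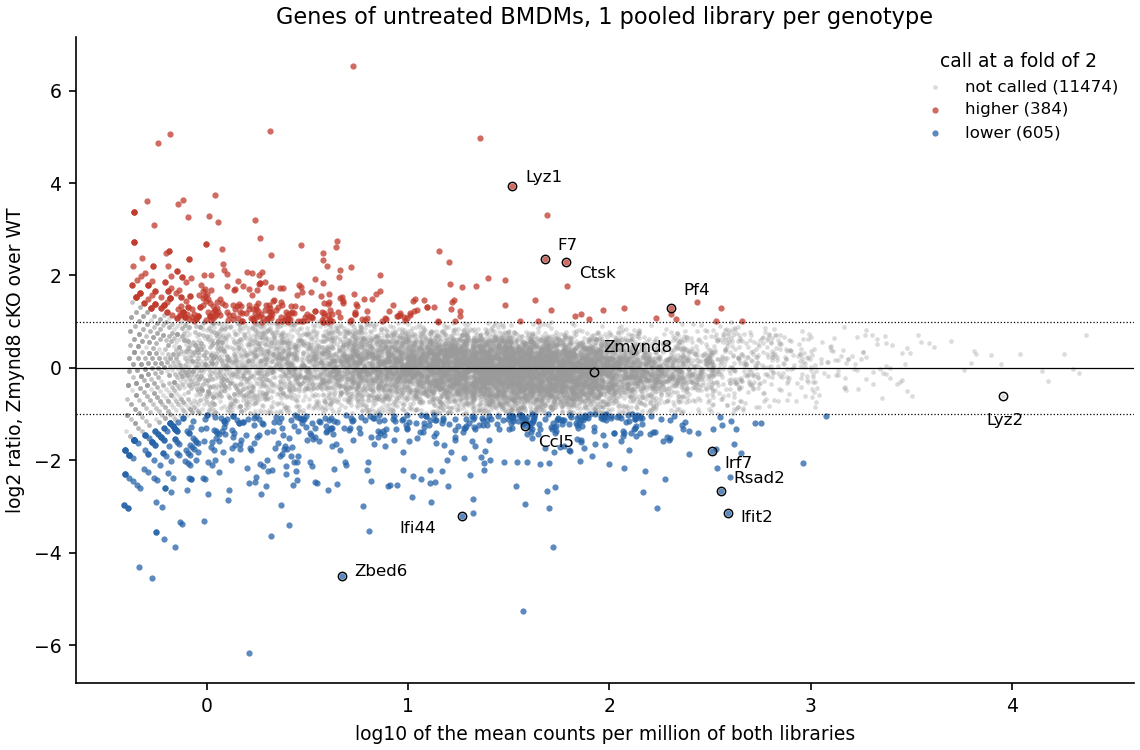
Each point is 1 gene of the untreated pair, with the log10 of its mean CPM on the horizontal axis and the log2 ratio of cKO over WT on the vertical axis. Red points are the 384 genes called higher and blue points the 605 called lower, dotted lines mark a fold of 2, and 27 called genes with 0 counts in 1 library (8 higher, 19 lower) have no finite ratio and are not drawn. Ifit2 stands at -3.14 and F7 at 2.36, while Zmynd8 lies near 0.

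Genes with an ISRE in the promoter were more common among the lower calls. The motif searched was GAAA, any 2 bases, then GAAA, on both strands (its complement reads TTTC, 2 bases, TTTC), in the RefSeq promoters of GRCm38.p6 (250 bases before to 50 bases after a gene's start). It occurred in 56 of the 343 lower-called genes that had a promoter (16.3%), in 8 of 238 higher-called genes (3.36%), in 379 of 9389 tested genes with a promoter (4.04%), and in 3.44% of all 32851 promoters. With calls at a fold of 1.5, the share among lower-called genes was 9.55%. The GAS motif (TTC, any 3 bases, then GAA) occurred in 10.5% of the lower-called genes, 7.98% of the higher-called and 8.23% of all tested genes. The kappaB motif (GGG, any 2 bases, then TTTCC) occurred in 3.21%, 3.36% and 2.04%, and the AP-1 motif TGANTCA in 11.7%, 12.6% and 6.28%. A match describes letters in a window and does not show binding. Of the antiviral genes with a promoter, 19 of 38 held an ISRE, and Ifi44, Ifit2 and Cmpk2, among the lowest ratios of that list, did not in this window. All 9 GTPase genes with a promoter held one, though not in every promoter of the gene. Of the 301 lower-called genes with a promoter that belong to none of the interferon lists, 29 held an ISRE (9.63%). Among these, named after their values were seen, were the PYHIN family genes Ifi206, Ifi208, Ifi211, Ifi213, Ifi214 and Mndal. The Trim genes Trim5, Trim12c, Trim30d and Trim34a and the helicase gene Ddx60 were among them too. Others of the 29 were of neither family, such as Eps8l1, Nectin4, Mmp13, Rbm41 and Lmbrd2. Of these, Rbm41 and Lmbrd2 were called higher in the LPS pair.

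The promoter of Rsad2, which encodes the antiviral enzyme viperin, is shown with that of the guanylate-binding protein gene Gbp3 and, for contrast, that of F7 (coagulation factor VII), in which no ISRE was found. Capitals mark the ISRE, which in Gbp3 is a pair of overlapping matches. Each runs 5′ to 3′ on the strand of the gene.
Rsad2 (chr12:26456403-26456702, minus strand): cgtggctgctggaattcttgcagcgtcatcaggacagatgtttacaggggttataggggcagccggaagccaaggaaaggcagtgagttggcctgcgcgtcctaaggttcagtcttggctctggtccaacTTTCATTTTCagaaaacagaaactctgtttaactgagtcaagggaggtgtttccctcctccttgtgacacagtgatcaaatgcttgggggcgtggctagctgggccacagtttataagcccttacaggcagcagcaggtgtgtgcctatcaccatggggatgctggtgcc
Gbp3 (chr3:142559794-142560093, plus strand): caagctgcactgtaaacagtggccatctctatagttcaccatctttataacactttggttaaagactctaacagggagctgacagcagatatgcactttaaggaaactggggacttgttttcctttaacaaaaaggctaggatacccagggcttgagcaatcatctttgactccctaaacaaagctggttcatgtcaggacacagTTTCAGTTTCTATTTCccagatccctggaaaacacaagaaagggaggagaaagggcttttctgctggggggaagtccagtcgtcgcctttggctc
F7 (chr8:13025784-13026083, plus strand): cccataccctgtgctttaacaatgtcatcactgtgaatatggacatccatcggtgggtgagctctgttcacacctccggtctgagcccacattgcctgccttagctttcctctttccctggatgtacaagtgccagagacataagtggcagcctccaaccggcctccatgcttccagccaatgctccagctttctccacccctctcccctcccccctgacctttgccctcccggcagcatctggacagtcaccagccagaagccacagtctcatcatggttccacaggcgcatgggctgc

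Of the other antiviral genes and GTPases with an ISRE, the 8 with the lowest ratios are shown as 30 bases around the first match, again in capitals and on the strand of the gene. Ifit3 and Ifit3b share the whole window, and reads of these near-copies can be assigned to either.
Ifit3b (chr19:34607759-34607788, plus strand): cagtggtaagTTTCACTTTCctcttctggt
Ifi205 (chr1:174031870-174031899, minus strand): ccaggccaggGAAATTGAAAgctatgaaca
Ifit1bl1 (chr19:34602053-34602082, minus strand): actctgtaggTTTCATTTTCtgtaggttgg
Tgtp1 (chr11:48992304-48992333, minus strand): tccaggaatcGAAACTGAAAcctacctgac
Ifit3 (chr19:34583363-34583392, plus strand): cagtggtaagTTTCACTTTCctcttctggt
Gbp7 (chr3:142530273-142530302, plus strand): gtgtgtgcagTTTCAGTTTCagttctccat
Gbp5 (chr3:142496759-142496788, plus strand): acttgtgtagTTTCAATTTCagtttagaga
Ifit1 (chr19:34640775-34640804, plus strand): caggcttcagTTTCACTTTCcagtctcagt

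Antiviral interferon-stimulated genes made up the list with the most lower calls. Of 50 genes in the list, 49 passed the count minimum, and of these 41 were called lower and 0 higher. The log2 ratios of all 49 were below 0 and ranged from -3.21 to -0.49, with a median of -1.53 beside -0.02 over all tested genes. Their summed level was 10714 CPM in WT and 3609 in cKO. Ifi44l had no count in either library.

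Ifit2, whose product binds foreign RNA and restrains viral translation, was at 698 CPM in WT and 78.9 in cKO, a log2 ratio of -3.14 (-3.21 to -3.07). Rsad2 was at 621 and 97.9 CPM (-2.66, limits -2.73 to -2.60), and its neighbour Cmpk2, a nucleotide kinase gene, at 318 and 60.4 CPM (-2.39). Ifi44 showed the lowest ratio of the list, from 33.5 to 3.63 CPM (-3.21, limits -3.55 to -2.88). Every one of these genes was expressed well above the counting floor in both libraries, so the lower value was a reduced and not an absent transcript. Ifit3 (664 and 129 CPM), Ifit1 (194 and 43.2 CPM) and Mx1, a dynamin-like GTPase that blocks viral replication (162 and 38.3 CPM), had log2 ratios of -2.36, -2.17 and -2.08. The ubiquitin-like modifier Isg15 went from 193 to 56.6 CPM (-1.77), and Oas3, which makes the activator of RNase L, from 522 to 155 CPM (-1.75). The cytosolic RNA sensors Ifih1 (-1.56) and Ddx58 (-1.48) and the Z-nucleic acid sensor Zbp1 (-1.90) were also called lower. The 8 members not called were Rtp4, Xaf1, Adar, Trex1, Bst2, Oas1a, Ifi35 and Pnpt1. Of these Bst2, the virion tether tetherin, went from 516 to 307 CPM (-0.75, limits -0.79 to -0.71).

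All 15 interferon-induced GTPases, which act on the vacuoles of intracellular microbes, passed the count minimum and were called lower. Their log2 ratios ranged from -2.68 to -1.28 (median -2.08), and their summed level was 1021 CPM in WT and 274 in cKO. Gbp7 was at 34.0 and 6.86 CPM (-2.31, limits -2.56 to -2.06), Gbp5 at 21.1 and 4.56 CPM (-2.21), and Gbp2 at 99.5 and 28.6 CPM (-1.797). Irgm1, a regulator of the family, went from 231 to 86.2 CPM (-1.42) and Igtp from 75.6 to 31.1 CPM (-1.28). The lowest was Gvin1 (254 and 39.7 CPM, -2.68), which has near-copies such as Gm4070 (308 and 37.4 CPM, -3.04) among which reads can be split.

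Of 26 interferon ligands, receptors and transducers, 23 passed the count minimum, 3 were called lower and 0 higher, and 20 of the 23 ratios were below 0, with a median of -0.39. Among the lower ones, Irf7 went from 503 to 144 CPM (-1.81, limits -1.86 to -1.75) and Stat2 from 297 to 104 CPM (-1.51), and both are themselves interferon-stimulated. The receptor chains Ifnar1 (189 and 151 CPM, -0.32) and Ifnar2 (142 and 135 CPM, -0.07), the complex subunit Irf9 (103 and 78.3 CPM, -0.39) and Irf3 (36.1 and 43.6 CPM, 0.27) did not reach the threshold. Ifnb1, Ifna4 and Ifng had no count in either library, which allows up to 0.133 CPM in the cKO library.

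Some families, picked after their values were seen, also had lower calls beyond the members of the interferon lists. Leaving those members out, 7 of 9 PYHIN genes were called lower and 0 higher (median -2.24), 2 of 3 Schlafen genes (median -1.81), and 5 of 8 Ms4a genes (median -1.50). Of 40 Trim genes 8 were lower and 1 higher (median -0.28). Ifi213 went from 89.4 to 11.02 CPM (-3.02) and Ms4a4a from 67.5 to 8.76 CPM (-2.94). Abundant single genes included the E3 ligase Rnf213 (1469 and 355 CPM, -2.05), the antiviral helicase Znfx1 (633 and 204 CPM, -1.64), the dNTPase Samhd1 (509 and 215 CPM, -1.24) and Cd274, which encodes PD-L1 (171 and 62.2 CPM, -1.46).

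**Figure D2:**
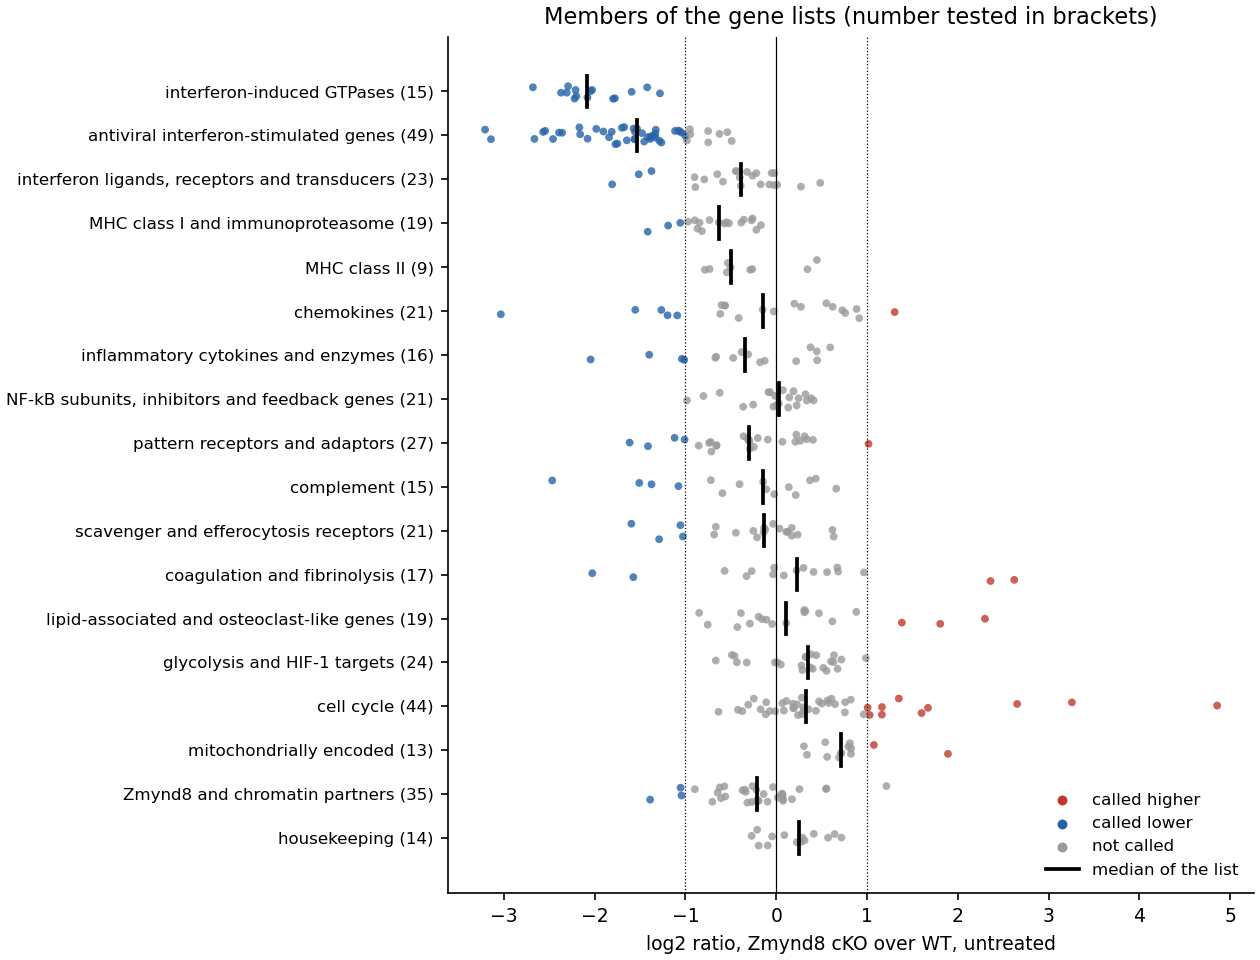
Each point is 1 gene of a list, placed by its log2 ratio of cKO over WT in the untreated pair, with lists as rows, the number of tested members in brackets and the median of each list as a black bar. The interferon-induced GTPases (median -2.08) and the antiviral genes (-1.53) stand to the left of the other gene lists drawn, and the NF-kB list has a median of 0.03.

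In antigen presentation the same direction was smaller. All 19 genes of MHC class I and the immunoproteasome had ratios below 0 (median -0.63), and 3 were called lower. These were Nlrc5, the transactivator of the class I genes (77.9 and 29.2 CPM, -1.42), the peptide transporter Tap1 (180 and 86.6 CPM, -1.06) and H2-Q7 (16.7 and 7.30 CPM, -1.19), whose family shares near-identical sequence. B2m, the class I light chain, went from 3093 to 2564 CPM (-0.27) and H2-K1 from 1228 to 792 CPM (-0.63). Of 9 tested MHC class II genes none was called (median -0.50).

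Among 21 tested chemokines 5 were called lower and 1 higher (median -0.15). The lower ones included the interferon-inducible ligands of CXCR3, Cxcl10 (25.4 and 8.67 CPM, -1.55), Cxcl9 (4.16 and 1.81 CPM, -1.20) and Cxcl11 (19 and 2 counts), as well as Cxcl1 (42 and 17 counts). With a pseudocount of 1 CPM, Cxcl9, Cxcl11 and Cxcl1 fell short of the threshold. Ccl5, which recruits T cells and monocytes, went from 53.9 to 22.4 CPM (-1.27, limits -1.42 to -1.12). Of the 21 ratios 9 were above 0 and 12 below. Among those above 0 that did not reach the threshold, Ccl2 was at 245 and 462 CPM (0.92, limits 0.87 to 0.96), Ccl7 at 208 and 305 CPM (0.55) and Ccl3 at 72.0 and 119 CPM (0.73). Pf4, a chemokine of platelets and macrophages, was called higher (116 and 287 CPM, 1.30).

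Of 16 tested inflammatory cytokines and enzymes, 4 were called lower and 0 higher (median -0.35). They were the death ligand Tnfsf10 (10.2 and 2.48 CPM, -2.04), Il10 (52 and 17 counts, -1.40), inducible nitric oxide synthase Nos2 (8.74 and 4.25 CPM, -1.04) and Acod1, which makes itaconate (56.3 and 27.9 CPM, -1.01). Il10, Nos2 and Acod1 fell short of the threshold with a pseudocount of 1 CPM. Tnf was at 33.1 CPM in WT and 45.3 in cKO (0.45). None of the 21 NF-kB subunits, inhibitors and feedback genes was called in either direction, and their ratios ranged from -0.98 to 0.41 (median 0.03).

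Among 27 pattern receptors and adaptors, 4 were lower and 1 higher. The lower ones were the endosomal nucleic acid receptors Tlr9 (20.9 and 6.82 CPM, -1.61), Tlr3 (19.9 and 7.48 CPM, -1.41) and Tlr8 (274 and 126 CPM, -1.12), and the cytosolic receptor Nod1 (13.3 and 6.59 CPM, -1.01). The endosomal receptors Tlr7 (114 and 68.4 CPM, -0.74) and Tlr13 (504 and 411 CPM, -0.29) did not reach the threshold, and the LPS co-receptor Cd14 was higher (223 and 452 CPM, 1.02). The complement genes C3 (169 and 65.4 CPM, -1.37), Cfb (-1.51), C2 (-2.47) and C1ra (-1.08) were lower out of 15 tested, while C1qa (-0.14) and C1qb (0.14) were not called. Of 21 scavenger and efferocytosis receptors 4 were lower: Marco (109 and 35.98 CPM, -1.60) and the apoptotic-cell receptors Mertk (98.8 and 40.4 CPM, -1.29), Axl (95.6 and 46.0 CPM, -1.06) and Itgav (129 and 63.3 CPM, -1.03).

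Among the lists, the most calls in the higher direction were the 10 cell cycle genes described further on. Of 17 tested coagulation genes 2 were called higher, 2 lower and 13 not called (median 0.22), beside 3.08% higher and 4.85% lower over all tested genes. F7 (chr8:13026034-13035809, plus strand) was at 15.5 CPM in WT and 79.8 in cKO (2.36, limits 2.21 to 2.52). F13a1, the transglutaminase that crosslinks fibrin, was at 1.22 and 7.52 CPM (2.62, limits 2.07 to 3.22). It is also a monocyte marker, as is Ccr2, and these were the 2 of 5 tested monocyte markers called higher, while Ly6a was lower (-1.06). The part of monocytes in these values was not tested. F10, which lies next to F7, was at 16.9 and 33.1 CPM (0.97, limits 0.80 to 1.14), short of the threshold. Thrombospondin Thbs1 (171 and 57.3 CPM, -1.57) and the prothrombinase Fgl2 (48.3 and 11.9 CPM, -2.03) were lower.

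Of 19 lipid-associated and osteoclast-like genes 3 were higher and 0 lower: the collagen-degrading protease gene Ctsk (20.7 and 102 CPM, 2.30, limits 2.16 to 2.44), the lipoprotein genes Apoc2 (7.17 and 25.1 CPM, 1.81) and Apoc1 (8 and 18 counts). The most abundant member, Gpnmb, was at 22288 and 20679 CPM (-0.11). The metallothioneins Mt1 (68.6 and 167 CPM, 1.29) and Mt2 (8.93 and 24.9 CPM, 1.48) were the 2 of 22 tested NRF2 and iron handling genes called higher, and 18 of the 22 ratios were above 0. Of 27 tested chemoattractant and growth factor receptors 2 were called higher, Ccr2 (6.37 and 15.0 CPM, 1.23) and Cx3cr1 (2.56 and 6.95 CPM, 1.44), and 1 lower, while 20 of the 27 ratios were below 0 (median -0.35). Beside these small counts, 3.08% of all tested genes were called higher and 4.85% lower.

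Of 44 tested cell cycle genes 10 were called higher and 0 lower, and 34 had ratios above 0 (median 0.33). All 10 were scarce: cyclin A2 (Ccna2) had 21 counts in WT and 114 in cKO (2.65, limits 1.97 to 3.40), thymidine kinase Tk1 91 and 250 (1.67), survivin Birc5 20 and 44 (1.35), the mitotic kinase Plk1 13 and 34 (1.60), Ube2c 4 and 33, and cyclin B2 (Ccnb2) 1 and 25 counts. The more abundant Pcna (932 and 1061 CPM, 0.19), Ccnd1 (566 and 437 CPM, -0.37) and Mki67 (213 and 260 counts, 0.50) were not called.

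Among called genes averaging at least 100 counts, several of the 15 highest and 15 lowest ratios belong to transcripts whose reads can be shared with a copy or an overlapping gene. Gm10184 had 846 counts in WT and 0 in cKO (at least 243-fold lower against a floor of 3 counts in the cKO library), and B430305J03Rik (1910 and 43), Zbed6 (235 and 9) and the pseudogene Gm7336 (2579 and 151) followed. In the LPS pair B430305J03Rik, Zbed6 and Gm7336 were called higher, while Gm10184 was again lower (106 and 0 counts). The highest ratio was that of Fam3b, which encodes a cytokine-like protein, with 3 counts in WT and 239 in cKO (6.53, limits 4.96 to 8.82). Fam3b was at 14.2 and 10.8 CPM after LPS. 

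The ratio depended on exon length, and this trend went through much of the transcriptome. In 10 equal bins of the tested genes by total exon length in GENCODE M21, the median log2 ratio fell from 0.44 in the shortest bin (67 to 1604 bases) to -0.44 in the longest (9629 to 123179 bases). The LPS pair showed the opposite trend, from -0.11 to 0.29, and the IL-4 pair nearly none, from 0.07 to -0.05. Genes with short transcripts lay above 0 as families: 79 of 80 ribosomal protein genes (median 0.70, 2 called higher), 35 of 36 NADH dehydrogenase subunit genes (median 0.61, none called) and 13 of 13 mitochondrially encoded genes (median 0.72), of which mt-Co2 (12.8 and 47.6 CPM) and mt-Atp6 were called higher. The mitochondrial share of all counts was 1.79% in WT and 2.48% in cKO, beside 1.67% in both IL-4 libraries. Glycolysis genes (median 0.35 over 24) and housekeeping genes (median 0.25 over 14) had no calls. The opposite end held the chromatin genes, with a median exon length of 7619 bases beside 4292 over all tested genes. Of 35 tested partners of ZMYND8 and related chromatin regulators 3 were called lower, the methyltransferases Kmt2c (-1.39) and Kmt2d (-1.05) and the demethylase Kdm5a (-1.04), and the median was -0.21 in NT and 0.23 in the LPS pair.

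**Figure D3:**
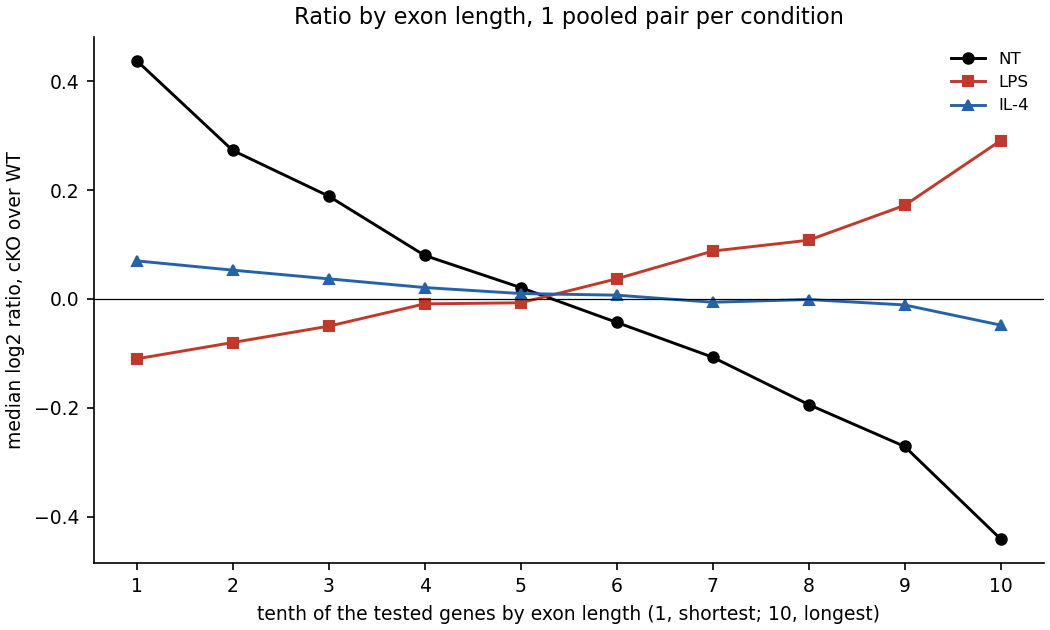
Points are the median log2 ratios of cKO over WT (vertical axis) in 10 bins of the tested genes by total exon length (horizontal axis), for the NT, LPS and IL-4 pairs. The untreated line runs from 0.44 down to -0.44, the LPS line from -0.11 up to 0.29, and the IL-4 line stays between 0.07 and -0.05.

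Subtracting the median ratio of genes of like length (20 bins) took out the trend bin by bin. After it, 306 genes were called higher and 566 lower, and 258 of the 384 higher and 452 of the 605 lower genes kept their call. The antiviral list had 42 lower calls and a median of -1.54, the GTPases 15 and -1.99, and F7, F13a1, Ctsk and Apoc2 stayed called. The 3 chromatin genes, Mt1, Mt2, mt-Atp6, Cd14, Pf4, Timp1, Apoc1, Siglece, Igkc, Nod1, Axl, Itgav, Tap1, Samhd1, Gm11472, AC134528.2 and Xist lost their calls, as did 3 of the 10 cell cycle genes, whose median became 0.53. The short-transcript families kept part of their shift, with adjusted medians of 0.40 for ribosomal protein genes, 0.25 for NADH dehydrogenase subunit genes and 0.27 for mitochondrially encoded genes. What made the ratio follow length was not tested.

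The LPS and IL-4 pairs are other libraries and showed the antiviral genes differently. In the LPS pair 0 of 49 antiviral genes were called in either direction (median -0.07), beside 2.41% of 12387 genes called higher and 1.92% lower. In the IL-4 pair 14 of 49 were higher and 0 lower (median 0.82), beside 4.08% of 13245 genes called higher and 2.05% lower, and 8 of 15 GTPases were higher (median 1.15). Ifit2 was at 6715 and 6671 CPM after LPS and at 97.9 and 225 CPM after IL-4, and Rsad2 at 11330 and 13284 CPM after LPS and at 72.3 and 214 CPM after IL-4. Each pair came in a table of its own, and in the sample titles the IL-4 libraries carry sample numbers apart from those of the NT and LPS libraries, so levels set across treatments carry that limit. Within it the untreated WT library exceeded the WT IL-4 library in 55 of 64 antiviral and GTPase genes, and the untreated cKO library was below the WT IL-4 library in 46 of 64. The untreated WT library exceeded the cKO IL-4 library in 38 of 64 (median log2 difference 0.11). The summed antiviral level was 5047 CPM in the WT IL-4 library and 8361 in the cKO IL-4 library, beside 10714 and 3609 CPM in the untreated ones. The median antiviral level was 138 CPM in the untreated WT library and 143 in the cKO IL-4 library, and the GTPases summed to 1021 and 1211 CPM, so the order of these 2 libraries depended on the measure.

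**Figure D4:**
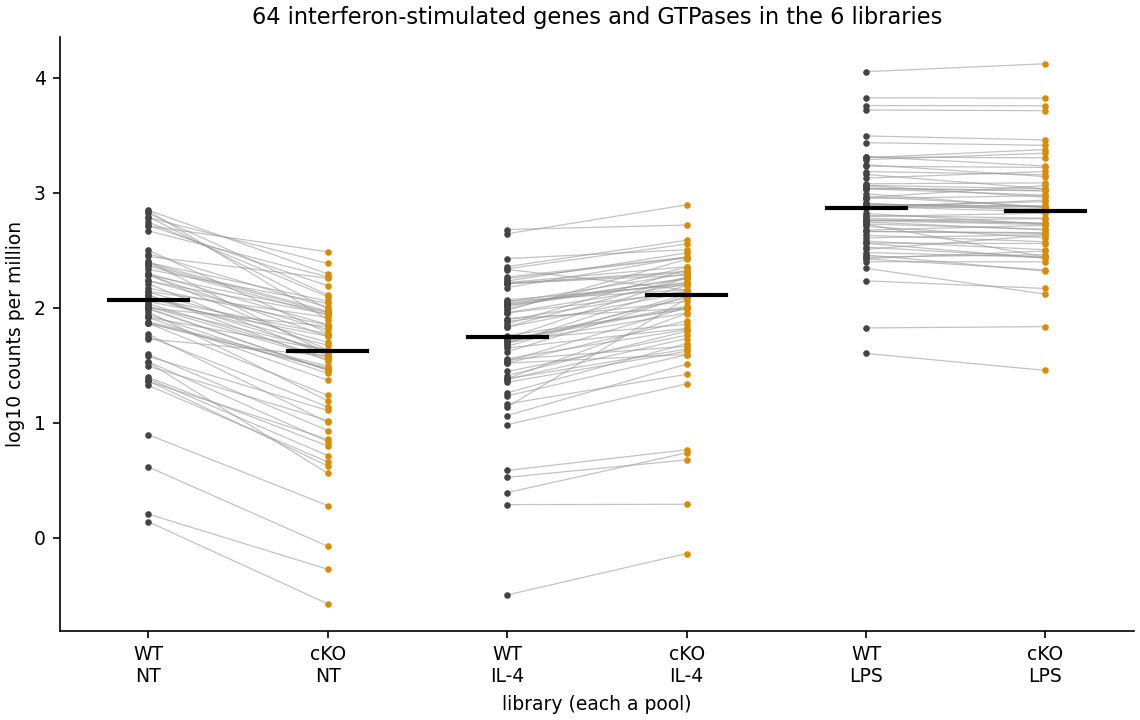
Each point is 1 of 64 antiviral and GTPase genes in 1 library, with log10 CPM on the vertical axis. Grey lines join the WT and cKO values of a gene within a treatment, and black bars are medians. Lines run down in NT, up in IL-4 and nearly level in LPS, where the levels are far higher.

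The chemokine and cytokine lists also differed between the pairs, with 14 of 23 chemokines and 11 of 18 cytokines called higher after IL-4 and none lower. Monocyte markers summed to 207 CPM in WT and 472 in cKO after IL-4, and neutrophil markers to 1086 and 1436. Macrophage markers (25130 and 20812 CPM), dendritic cell markers (301 and 250) and stromal markers (58.7 and 52.4) went the other way. The part of such cells in the IL-4 values was not tested. Ccl5 was at 41.4 and 139 CPM after IL-4 (1.75) and at 4745 and 4454 CPM after LPS (-0.09). Over all genes, of the 605 called lower in NT 574 were tested in the IL-4 pair, where 74 were higher (12.9%) and 12 lower (2.09%), and 547 in the LPS pair, where 53 were higher (9.69%) and 13 lower (2.38%). Of the 384 called higher in NT 323 were tested in the IL-4 pair, where 80 were higher (24.8%) and 13 lower (4.02%), and 257 in the LPS pair, where 35 were higher (13.6%) and 14 lower (5.45%). The shares over all tested genes were 4.08% higher and 2.05% lower in the IL-4 pair, and 2.41% and 1.92% in the LPS pair. Genes called higher in NT thus exceeded these shares in both directions.

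A small set was called in the same direction in all 3 pairs, 19 genes higher and 1 lower (the noncoding 5830444B04Rik). After the length adjustment 16 of the 19 were still called in all 3, without Siglece, Gm9888 and Gm12915. Besides Lyz1 the higher ones included F7, which was at 44.7 and 156 CPM after LPS (1.805) and at 6.69 and 77.6 CPM after IL-4 (3.54). Ctsk was at 30.8 and 64.2 CPM after LPS (1.06) and at 1.30 and 13.6 CPM after IL-4 (3.39). Ccr2, the receptor of Ccl2, was at 3.73 and 11.01 CPM after LPS (1.56) and at 64.8 and 161 CPM after IL-4 (1.31). The inhibitory receptor gene Siglece was higher too, at 4.82 and 11.7 CPM after LPS (1.28) and at 28.2 and 104 CPM after IL-4 (1.88), beside 34 and 64 counts in NT (1.13). Others were the troponin gene Tnni2 (2.28, 1.49 and 1.51 in NT, LPS and IL-4), the kallikrein gene Klk1b11 (1.94, 1.27 and 1.89), the ligand gene Wnt6 (2.07, 1.37 and 2.03) and the tetraspanin-like Tm4sf5 (2.69, 2.09 and 1.29).

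**Figure D5:**
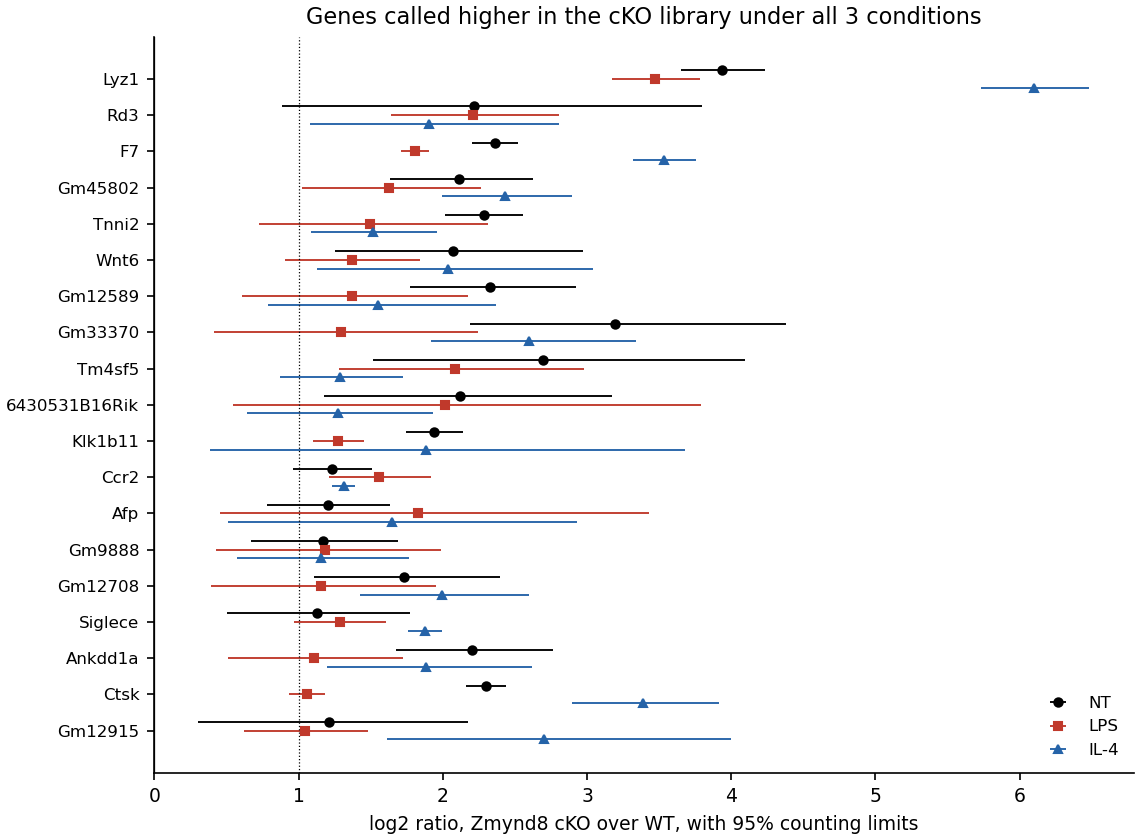
The 19 genes called higher in the cKO library in the NT, LPS and IL-4 pairs are rows, with the log2 ratio of cKO over WT on the horizontal axis and bars for the 95% counting limits. All points lie at or beyond the dotted line at a fold of 2, with Lyz1 at 3.94, 3.47 and 6.10 and F7 at 2.36, 1.805 and 3.54.

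Taking the 3 pairs as replicates of the genotype, with treatment as a block, left 2 residual degrees of freedom. The labels do not say whether the pools of a genotype share mice across treatments. The p-values of this fit therefore need not measure the spread between mice. In this fit edgeR's quasi-likelihood test with Benjamini-Hochberg adjustment called 0 of 13075 genes (0%), with 403 at an unadjusted p under 0.05 and a smallest adjusted p of 0.465, while DESeq2 in the same design called 40, of which 37 were higher and 3 lower. Leaving out 1 pair in turn, edgeR called 7 genes without the NT pair (all higher), 31 without the LPS pair (all higher) and 16 without the IL-4 pair (9 higher, 7 lower). The DESeq2 adjusted p was 3.97e-10 for F7, 1.43e-07 for Ccr2, 1.10e-04 for Ctsk and 0.9995 for Ifit2. The edgeR adjusted p-values of these genes, in the same order, were 0.465, 0.465, 0.699 and 0.999. F7, Ccr2 and Ctsk were named for their calls in all 3 pairs of these same libraries, so their p-values are not separate support.

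Calls were spread over the chromosomes. On the autosomes and X, the share of tested genes called higher ranged from 1.38% on chromosome 18 to 4.21% on chromosome 3, and the share called lower from 3.07% on chromosome 4 to 6.77% on chromosome 5, which carries a Gbp cluster and the Oas genes. Within 5 Mb of Zmynd8, 4 of 71 other tested genes were higher (5.63%, Ube2c, Mybl2, Gm11472 and Gm20458) and 3 lower (4.23%, Znfx1, Adnp and Cebpb). Within 5 Mb of Lyz2, 2 of 40 were higher (5%, Lyz1 and AC134528.2) and 2 lower (5%). The shares over all tested genes were 3.08% higher and 4.85% lower, so these few calls lay near them.

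Single genes of further lists were also called. The cholesterol exporter Abca1 (276 and 91.9 CPM, -1.59) was lower as 1 of 14 LXR and cholesterol efflux genes, the acyltransferase Gpam (10.8 and 4.204 CPM, -1.36) as 1 of 12 fatty acid synthesis genes, and ceruloplasmin Cp (49 and 12 counts, -1.82) as 1 of 22 NRF2 and iron handling genes. With 4.85% of all tested genes called lower, 1 call in a list of this size is near the general share and says nothing about the list. Collagenase Mmp13 was lower (190 and 75.5 CPM, -1.33) and its inhibitor Timp1 higher (25 and 49 counts, 1.19). The transcription factor Cebpb was lower (53.0 and 25.4 CPM, -1.06). No gene was called among the tested members of the lists for sterol synthesis (24 genes), the unfolded protein response (23), heat shock (12), the lysosome (36), NADPH oxidase (7), prostaglandin and leukotriene enzymes (15) and alternative activation (13).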

How the data were processed

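RNA-seq libraries were made by the authors from polyadenylated RNA of BMDMs. Reads were mapped by them with TopHat (mm10 transcriptome). The submitters' processing notes list CASAVA 1.4 and Bowtie 0.12.2, with builds mm8 and mm10. The authors deposited expected counts per gene, not normalized, and TPM. Between 75.2% and 76.6% of expected counts above 0 were whole, and all were rounded. Deposited fold changes and p-values of the authors' comparison of 2 libraries were not used. For the untreated pair, 431 entries named no gene and held no counts. Totals were 22597425 to 28386646 counts per library, and 51633 of 51912 gene IDs were found in GENCODE M21. Some gene names in the untreated table had become dates, so names were taken from the LPS table by gene ID.

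The fold, limits and minimum are given in the report. With 1 library per group, the design was a description by size, with alternatives listed in the closing section. edgeR 4.0.16 and DESeq2 1.42.0 (R 4.3.3) and scipy 1.17.1 were used, and the steps were tested on simulated data. Besides the fixed names (Zmynd8, Lyz1, Lyz2, Ifit2, Ccl5, F7), named genes were the 15 highest and 15 lowest ratios among calls averaging at least 100 counts, up to 6 called members (by size of ratio) and 4 uncalled members (by mean count) of each of 33 gene lists and 11 marker lists, and up to 15 genes in each direction called in all 3 treatments. Further members of lists that are named were chosen after their values were seen, as were genes outside the lists. Members and lists were chosen with earlier results of these data known. Series tables of other cells and assays were not used here. Some members of the lists are not reported here by name.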

Additional observations from a re-analysis of the deposited data

Results flagged for a closer look

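The 49 antiviral interferon-stimulated genes tested were all lower in the untreated cKO library, with a median log2 ratio of -1.53, and 48 of 49 were above 0 in the IL-4 pair, with a median of 0.82. The 15 interferon-induced GTPases were all lower in the untreated pair (median -2.08) and all above 0 in the IL-4 pair (median 1.15). This difference between treatments was not tested, since each pair is 1 library against 1 library.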

How the results depend on the processing

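The 384 higher and 605 lower calls became 121 and 356 with a pseudocount of 1 CPM, 158 and 388 with a minimum mean count of 50, and 1200 and 1635 at a fold of 1.5. A fold of 1.2 with an adjusted exact binomial p gave 2773 and 3298, and the edgeR exact test at a biological coefficient of variation set to 0.2 gave 81 and 192. With no filter on low counts 586 genes were called higher. The share of lower-called genes with an ISRE was 9.55% at a fold of 1.5. No called gene named by rule changed sign. The medians of 5 lists near 0 changed sign after the length adjustment, among them fatty acid synthesis (-0.10 to 0.11), NADPH oxidase (0.19 to -0.05) and the unfolded protein response (0.02 to -0.20). The Fc and TREM receptor list went from 1 higher call to 2 lower. Under median ratio scaling, TMM, a pseudocount, either filter and the length adjustment, chosen after seeing the data, 40 to 42 antiviral genes and 13 to 15 GTPases were called lower. Of 253 gene values named by rule, 2 calls were lost under TMM, 27 with the pseudocount and 21 after the length adjustment. The fit over 6 libraries called 0 genes by edgeR, also without the treatment block and under RLE scaling (15 and 406 at an unadjusted p under 0.05), and 40 by DESeq2. Leaving out 1 pair in turn, edgeR gave 7 to 31 calls. No paired analysis was possible because each untreated group had 1 library and the labels give no shared replicate numbers, and the block above pairs libraries by treatment, not by animal. What set these differences was not tested. The depth limits scarce genes such as Ccnb2 and Fam3b, and 1 pool per genotype leaves the spread between mice unknown.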
